A study of Mus musculus with 18 samples.

Results

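Keratins are the intermediate filament proteins of epithelial cells, and each filament is built from pairs of 1 type I and 1 type II keratin. The basal layer of the epidermis is known for the pair Krt5 (type II) and Krt14 (type I). Cells that leave the basal layer switch to Krt1 and Krt10, and Krt2 appears later in the upper spinous and granular layers. Krt77 is a type II keratin of suprabasal cells, Krt79 is known from the follicle infundibulum and the sebaceous gland duct, and Krt80 is a type II keratin of differentiating epithelia. Krt8 and Krt18 form the simple epithelial pair, which in skin is best known from Merkel cells. These 10 genes were chosen by name from the 23951 genes of the deposited table. They are 10 of its 52 keratin genes, and no threshold on a measured value was part of the rule.

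RNA was sequenced from 18 libraries of sorted mouse ear epidermis, 3 in each of 6 groups. DKO* mice carried floxed JunB and c-Jun alleles, the tamoxifen-inducible Cre driven by the K5 promoter (K5-Cre-ERT), and the mT/mG reporter. This reporter switches from Tomato to GFP in cells where Cre has acted. Control mice (Co) carried the K5 Cre and the reporter with wild-type or heterozygous JunB and c-Jun, so that the controls share every agent except the homozygous floxed alleles. All mice were 8 weeks old, of mixed background and both sexes. They received 4 daily injections of 2 mg tamoxifen and were analysed at day 7. Cells were sorted as CD45- and CD49f high, and as CD34+ for bulge hair follicle stem cells (HF-SC) or CD34- for basal keratinocytes (b-KC). From DKO* mice 814, 815 and 817 the mutant GFP+ (GFP) and the non-mutant Tomato+ (Tom) fractions of both cell types were taken, so these 4 populations share their mice. Mice 810, 825 and 828 gave HF-SC Co and b-KC Co, which the sample labels do not divide by fluorescence. The K5 promoter that drives the Cre is that of one of the genes described here.

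Jun, 1 of the 2 targeted genes, lay at 835 FPKM or more in all 6 Co libraries. The GFP fractions had 29.6 to 88.4 FPKM and the Tom fractions 163 to 614. Jun and Junb, the other targeted gene, were also lower than Co in b-KC Tom (log2 fold changes -1.94 and -1.27, adjusted p = 0.00112 and 0.00303, limma). In HF-SC Tom they did not pass (-1.30 and -0.56, adjusted p = 0.0153 and 0.146, limma). Why they were lower in Tom cells was not tested. FPKM is the read count of a gene scaled by transcript length and library depth. The low FPKM values imply a depth of 16518000 to 26256000 reads per library. Cd34, which defined the HF-SC gate, had 640 to 889 FPKM in HF-SC Co and 1.13 to 2.04 FPKM in b-KC Co. All 10 tested bulge genes, Cd34 among them, were higher in HF-SC Co than in b-KC Co (limma, adjusted p under 0.01), beside 18.7% of all tested genes. Against HF-SC Co, 6 of the 10 fell in HF-SC GFP and 5 in HF-SC Tom, beside 12.4% and 13.9% of all tested genes. Cd34 fell in both, to 161 to 228 FPKM in HF-SC GFP and 260 to 319 in HF-SC Tom. The endothelial marker list summed to 446 to 1480 FPKM in HF-SC Tom, 53.5 to 85.9 in HF-SC Co, 1.84 to 30.8 in HF-SC GFP and 1.61 to 11.5 in the b-KC groups, and its part in the HF-SC Tom results was not tested. The leukocyte list summed to 95.6 to 807 FPKM in the DKO* groups and 4.07 to 10.2 in Co. Nearly all of that sum was Cd74, while Ptprc, the gene of the gated CD45, was at or under 0.946 FPKM in every library. The libraries of mouse 817 stood apart from those of the other DKO* mice. In each population they held the lowest share of S100a8 and S100a9 of the 3 mice and the highest Krt2, and results that move with this mouse are given with and without it. For Krt14 the table lists exactly 0 in 3 b-KC libraries, the GFP library of mouse 817 and the Tom libraries of mice 814 and 817, beside 2085 FPKM or more in all others. These values were set to missing, so b-KC GFP keeps 2 Krt14 values and b-KC Tom keeps 1.

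The type II genes and Krt18 lie close together, and the other type I genes are on another chromosome. On the NCBIM37 build (mm9), 8 of the 10 genes span 685 kb of chr15:101177875-101862457, from Krt80 to Krt18. Krt10 (chr11:99246568-99250678) and Krt14 (chr11:100064476-100068862) are on chromosome 11. Krt18 is on the plus strand and the other 9 on the minus strand. The floxed genes encode subunits of AP-1, a transcription factor known to bind TGANTCA. The 250 bases before the transcription start were available for 8 genes in RefSeq (GRCm38.p6), all but Krt1 and Krt80. TGANTCA, which reads the same on both strands, was found in none of these 8 windows and in 6.75% of all 32851 promoter windows of that length, which says only that these letters are not in these windows. A TATA motif (TATAAA or TATATA) on the gene's strand was found in Krt10, Krt2 and Krt77, starting 28, 29 and 30 bases before the start. Over all windows and both strands, 12.4% hold TATAAA and 5.25% hold TATATA. These 3 windows are shown because they hold the motif, and each of these genes fell in b-KC Tom, as did Krt79, whose window holds none. They are printed 5′ to 3′ with the TATA motif in capitals, from chr11:99389365-99389614, chr15:101818170-101818419 and chr15:101869706-101869955 of GRCm38.p6, all on the minus strand.
Krt10: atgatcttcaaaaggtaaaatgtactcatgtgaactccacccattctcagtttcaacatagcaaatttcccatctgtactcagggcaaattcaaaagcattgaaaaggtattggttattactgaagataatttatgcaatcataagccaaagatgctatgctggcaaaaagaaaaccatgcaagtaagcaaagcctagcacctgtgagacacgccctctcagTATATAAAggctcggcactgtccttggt
Krt2: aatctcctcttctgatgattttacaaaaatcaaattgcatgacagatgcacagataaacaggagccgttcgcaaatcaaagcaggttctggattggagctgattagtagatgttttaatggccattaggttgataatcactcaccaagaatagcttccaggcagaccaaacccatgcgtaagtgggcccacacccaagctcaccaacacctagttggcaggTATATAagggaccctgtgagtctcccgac
Krt77: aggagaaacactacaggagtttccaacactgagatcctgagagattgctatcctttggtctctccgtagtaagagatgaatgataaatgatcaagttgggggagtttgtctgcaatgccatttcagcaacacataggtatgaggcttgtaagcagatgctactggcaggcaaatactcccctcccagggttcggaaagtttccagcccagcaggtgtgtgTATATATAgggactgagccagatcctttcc

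In control mice the suprabasal keratins and Krt79 were far lower in HF-SCs than in b-KCs, although both populations were gated on the basal marker CD49f. Krt2 was the most abundant suprabasal keratin of b-KC Co, with 7268, 6623 and 6316 FPKM in mice 810, 825 and 828. The HF-SC Co libraries of the same mice had 435, 814 and 597 FPKM of Krt2. Krt10, the type I partner of Krt1, had 3418, 2580.0 and 2743 FPKM in b-KC Co against 292, 327 and 231 in HF-SC Co. No library of HF-SC Co reached any library of b-KC Co for either gene. Krt1 had 1073, 953 and 909 FPKM in b-KC Co and 62.6, 84.9 and 66.2 in HF-SC Co. The follicle duct keratin Krt79 had 441, 322 and 338 FPKM in b-KC Co and 31.2, 22.5 and 27.9 in HF-SC Co, and the spinous keratin Krt77 had 221, 149 and 161 against 7.77, 12.9 and 14.5. The mean FPKM in b-KC Co was thus 13.7 times that in HF-SC Co for Krt1, 10.3 times for Krt10, 10.9 times for Krt2, 15.1 times for Krt77 and 13.5 times for Krt79. In bulk samples, fewer cells that hold a transcript and less of it per cell cannot be told apart.

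Of the 8 genes that passed the filter on low values, 5 were lower in HF-SC Co than in b-KC Co at an adjusted p under 0.01, beside 19.3% of all 12751 tested genes (18.7% were higher and 38% passed in either direction). They were Krt14, Krt1, Krt10, Krt77 and Krt79, of which Krt14 did not pass without the filter (adjusted p = 0.313, limma) or with its zeros kept (adjusted p = 0.593, limma). Krt79 fell by 3.70 on the log2(FPKM + 1) scale (standard error 0.42, Benjamini-Hochberg adjusted p over all tested genes = 3.12e-06, limma), and the median over the 8 genes was -3.43 against -0.06 over all tested genes. Krt2 differed by -3.49 (adjusted p = 0.0258, limma), a value that its spread between DKO* mice sets in the shared fit, and it passed with the mouse as a random block (adjusted p = 0.00179, limma), without mouse 814 (adjusted p = 0.00802) and without mouse 817 (adjusted p = 9.59e-05). Krt5 and Krt80 differed less, by -0.58 and -0.53 (adjusted p = 0.105 and 0.234, limma). For Krt80 the 2 control groups did not overlap, with 123 to 143 FPKM in HF-SC Co and 189 to 204 in b-KC Co, and with a term for each mouse in a fit of the Co libraries alone it passed (adjusted p = 0.00354, limma).

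**Figure D1:**
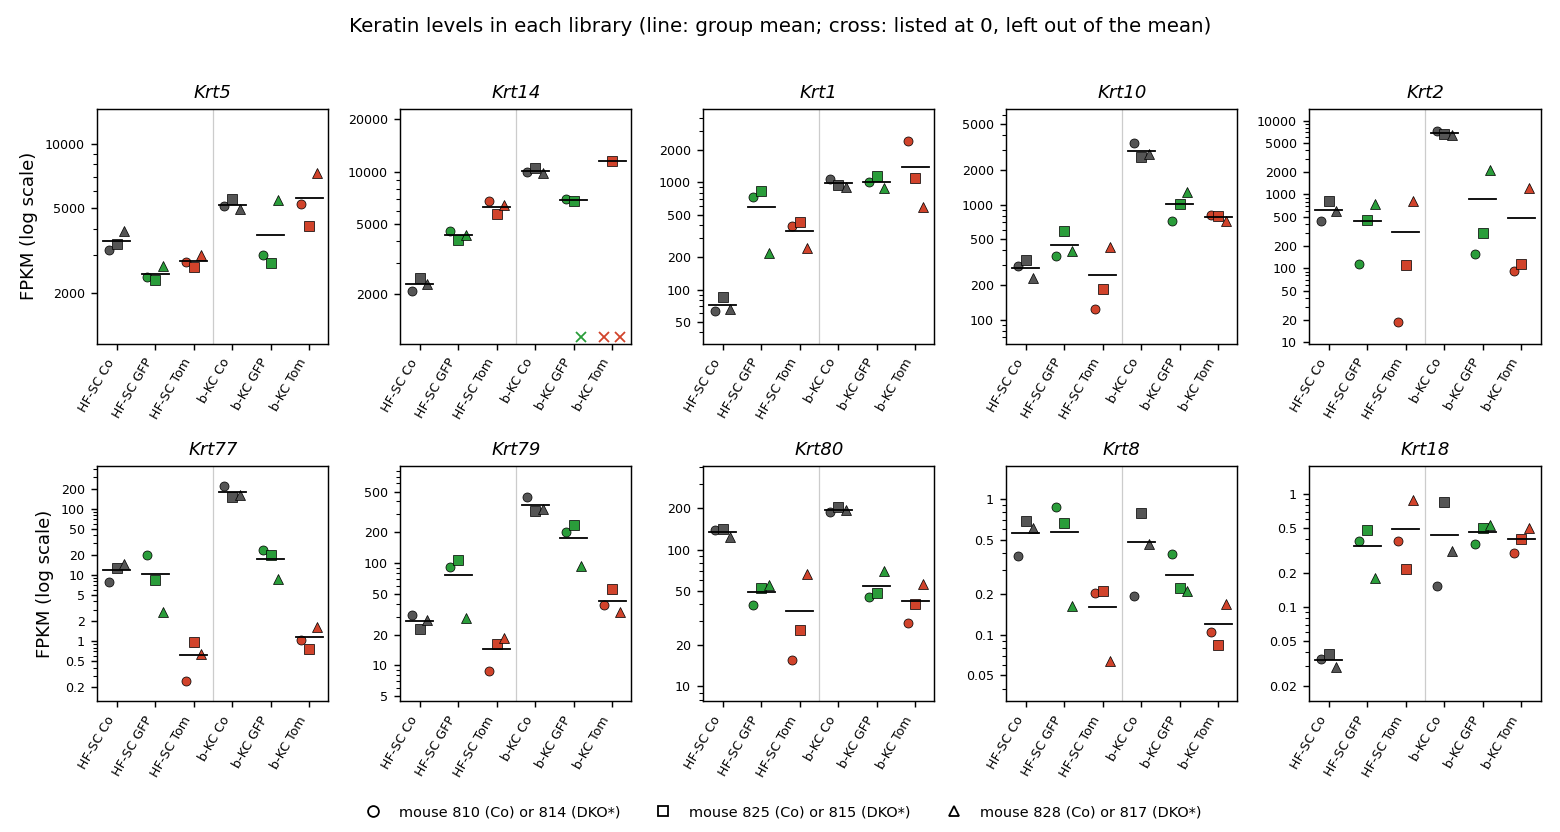
FPKM of the 10 keratin genes on log axes, 1 panel for each gene and 1 point for each library, with the mouse given by the symbol and the group mean by a line. Crosses mark the 3 b-KC libraries in which Krt14 was listed at 0. Krt1, Krt10, Krt2, Krt77 and Krt79 stand far higher in b-KC Co than in HF-SC Co, and Krt8 and Krt18 stay under 1 FPKM in all 18 libraries.

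The basal keratins were abundant in all 6 groups, and Krt14 rose in HF-SC Tom, while Krt5 passed in no comparison over all mice. The HF-SC Co libraries held 2085, 2479 and 2292 FPKM of Krt14. In mice 814, 815 and 817 it stood at 4612, 4050.3 and 4339 FPKM among GFP cells of the bulge and at 6787, 5704 and 6439 among Tom cells. The 3 groups did not overlap. The log2 fold change against HF-SC Co was 1.46 in HF-SC Tom (standard error 0.26, adjusted p = 0.000575, limma) and 0.92 in HF-SC GFP (standard error 0.26, adjusted p = 0.0128, limma). The HF-SC GFP value passed with the mouse as a random block (adjusted p = 0.00873, limma) and without a trend in limma's variance model (adjusted p = 5.02e-05). The HF-SC Tom value rests on how the spread is estimated: it did not pass in a fit of the 2 groups alone (adjusted p = 0.0225), without the filter (adjusted p = 0.552) or with the 3 zeros kept (adjusted p = 0.730). The residual variance of Krt14 was 0.00986, whereas the variance that limma's trend assigned to genes of its level was 0.327 with the filter and 36.0 without it.

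Reads of Krt14 are hard to place. Of the 51-base windows of its longest transcript, the read length used here, 47.9% lay within 2 mismatches of Krt16, Krt17 or Krt42, and 13.8% were identical to one of them. Krt16 and Krt17 are keratins of wounded and hyperproliferative epidermis. Krt17 had 219 to 232 FPKM in HF-SC Co, 1127 to 2522 in HF-SC GFP and 610 to 945 in HF-SC Tom, and Krt16 had 7.40 to 13.5, 114 to 822 and 372 to 571 in the same order. Between HF-SC Tom and HF-SC GFP, Krt14 was higher in each Tom library, Krt17 was lower in each, and Krt16 overlapped. The part of misplaced reads in the Krt14 values was not tested.

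In b-KCs, Krt14 had 9940, 10559.6 and 9817 FPKM in Co and 7002 and 6838 in GFP of mice 814 and 815, a log2 fold change of -0.55 (adjusted p = 0.146, limma). The lone value in b-KC Tom, 11448 FPKM in mouse 815, was taken to vary like the other groups. The b-KC GFP decrease of Krt14 passed at the same fold without a trend in the variance model (adjusted p = 0.00532, limma). Scaling all libraries to the same FPKM sum, an alternative chosen after seeing the data, gave a larger decrease of Krt14 in b-KC GFP (log2 fold change -1.08, adjusted p = 0.00121, limma). For Krt5 the HF-SC Co libraries gave 3163, 3369.9 and 3902 FPKM. The bulge cells of mice 814, 815 and 817 gave 2372, 2299 and 2675 as GFP and 2793, 2652 and 3009.8 as Tom. Both DKO* groups lay below HF-SC Co in every library, but the log2 fold changes of -0.50 and -0.30 did not pass (adjusted p = 0.181 and 0.419, limma). The b-KC libraries gave 5081, 5529.5 and 4928 FPKM of Krt5 for Co. Mice 814, 815 and 817 gave 2999, 2753 and 5473 for GFP, with 5198, 4093 and 7318 for Tom. Mouse 817 had the highest Krt5 in both DKO* b-KC groups, and without it the log2 fold change in b-KC GFP was -0.85 and passed (adjusted p = 0.00716, limma). Of the Krt5 windows, 14.4% lay within 2 mismatches of another transcript, mainly of Krt6b and Krt6a, which limits its values in the same way.

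The pair of early differentiation keratins moved apart. Krt1 rose in both HF-SC fractions, whereas Krt10 fell in both b-KC fractions. Among bulge cells, Krt1 stood at 733, 828 and 219 FPKM as GFP and at 396, 426 and 243 as Tom, every one of them above the highest HF-SC Co library at 84.9. Its mean was 8.33 times that of HF-SC Co in GFP and 4.98 times in Tom. The log2 fold change was 2.84 in HF-SC GFP (standard error 0.47, adjusted p = 0.000235, limma) and 2.27 in HF-SC Tom (standard error 0.47, adjusted p = 0.00118, limma). The second did not pass without mouse 815 (log2 fold change 2.12, adjusted p = 0.0142). In b-KCs Krt1 had 1002, 1148 and 884 FPKM in GFP and 2442, 1106 and 592 in Tom, around the 909 to 1073 of Co, with log2 fold changes of 0.04 and 0.26 (adjusted p = 0.954 and 0.681, limma) whose sign changed with the scaling of the libraries.

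Krt10 had 719, 1014 and 1283 FPKM in b-KC GFP and 813, 798 and 717 in b-KC Tom, all below the lowest b-KC Co library at 2580.0. The mean in Co was 2.90 times that in GFP and 3.76 times that in Tom. The log2 fold change of Krt10 was -1.56 for GFP (standard error 0.35, adjusted p = 0.00287, limma) and -1.90 for Tom (standard error 0.35, adjusted p = 0.000524, limma). The decrease in GFP did not pass when any mouse other than 817 was left out, with log2 fold changes between -1.65 and -1.34 and adjusted p between 0.0110 and 0.0263, or without the filter (adjusted p = 0.0106). In HF-SCs, Krt10 had 354, 587 and 398 FPKM in GFP and 123, 183 and 431 in Tom, and neither group passed against Co (adjusted p = 0.168 and 0.385, limma). Without mouse 817, whose Krt10 of 431 was the highest of the HF-SC Tom libraries, the HF-SC Tom value was -0.90 and passed (adjusted p = 0.0085, limma).

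The ratio of Krt1 to Krt10 within a library does not depend on how libraries are scaled. It was 0.214 to 0.286 in HF-SC Co and 0.314 to 0.369 in b-KC Co. It was 0.552 to 2.07 in HF-SC GFP, 0.565 to 3.21 in HF-SC Tom, 0.689 to 1.39 in b-KC GFP and 0.825 to 3.01 in b-KC Tom, so each of the 12 DKO* libraries lay above each of the 6 Co libraries. In each population mouse 817 had the lowest ratio of the 3 mice and mouse 814 the highest. The ratio of Krt14 to Krt5 was 0.588 to 0.736 in HF-SC Co, 1.62 to 1.94 in HF-SC GFP, 2.14 to 2.43 in HF-SC Tom and 1.91 to 1.99 in b-KC Co. It was 2.33 and 2.48 in b-KC GFP of mice 814 and 815, and 2.80 in the lone b-KC Tom library with a Krt14 value. The shared windows of Krt14 and Krt5 enter this ratio.

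Krt2, the late suprabasal keratin, had the largest decrease in mean FPKM of the 10 genes and the largest standard error of the 8 tested ones. It had 158, 302 and 2129 FPKM in b-KC GFP and 93.1, 114 and 1228 in b-KC Tom, while no b-KC Co library was under 6316. The mean in Co was 7.80 times that in GFP and 14.1 times that in Tom. The decrease passed in b-KC Tom (log2 fold change -4.83, standard error 1.22, adjusted p = 0.00486, limma) and did not pass in b-KC GFP (log2 fold change -3.84, standard error 1.22, adjusted p = 0.0206, limma). In both, mouse 817 had the highest value by far, and the groups still did not overlap with Co. Without mouse 817 the log2 fold changes were -6.01 in b-KC Tom (adjusted p = 3.68e-06, limma) and -4.93 in b-KC GFP (adjusted p = 2.20e-05, limma). With the mouse as a random block b-KC GFP passed too (adjusted p = 0.00523, limma), whereas b-KC Tom did not pass when mouse 810, 815, 825 or 828 was left out (adjusted p between 0.0206 and 0.0543) or without the filter (adjusted p = 0.0195).

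In HF-SCs, Krt2 had 114, 449 and 742 FPKM in GFP and 19.0, 112 and 811 in Tom, and both ranges overlapped the 435 to 814 of Co. The log2 fold changes of -0.82 and -2.29 did not pass (adjusted p = 0.624 and 0.144, limma). Without mouse 817 the log2 fold change in HF-SC Tom was -3.65 and passed (adjusted p = 0.000223, limma). The ratio of Krt2 to Krt1, a late to an early suprabasal keratin, was 6.77 to 9.58 in the 6 Co libraries. In the DKO* libraries of mice 814 and 815 it was at most 0.543, and in those of mouse 817 it was 2.08 to 3.38.

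**Figure D2:**
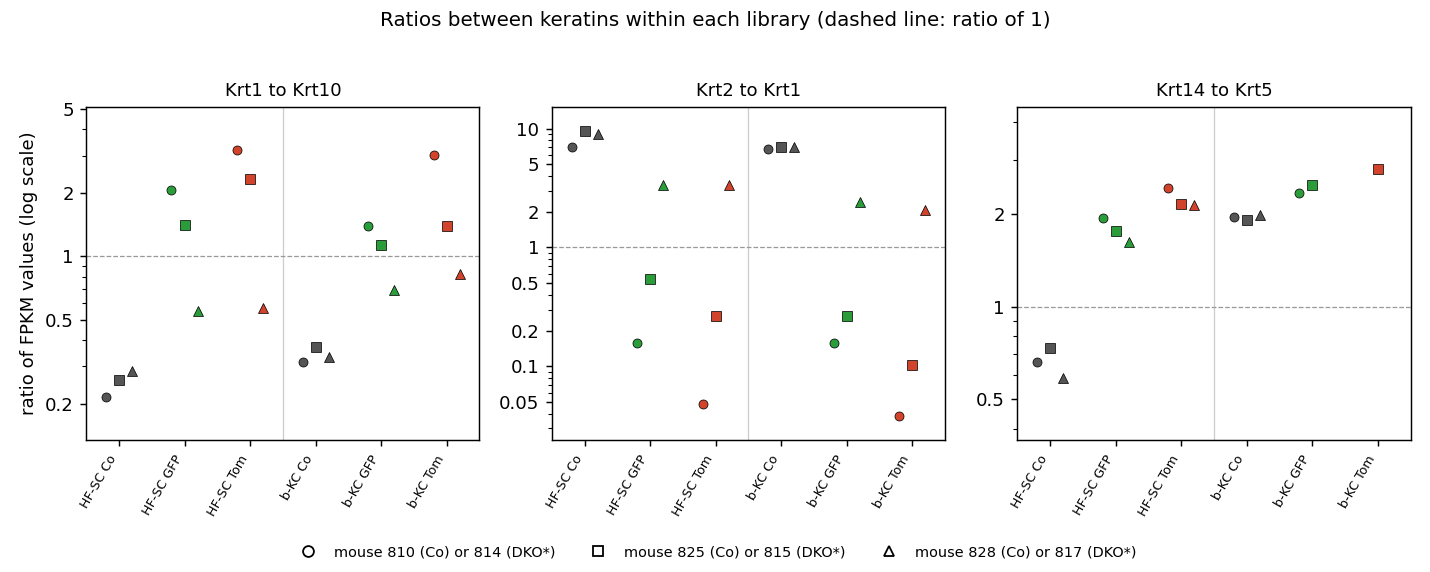
Ratios of FPKM values between keratins within each library on log axes, with the mouse given by the symbol. Krt1 to Krt10 is at most 0.369 in every Co library and at least 0.552 in every DKO* library, Krt2 to Krt1 is 6.77 or more in every Co library and 3.38 or less in every DKO* library, and Krt14 to Krt5 lacks the 3 libraries with Krt14 listed at 0.

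The less abundant keratins Krt77, Krt79 and Krt80 all fell in b-KC Tom. Krt77 had 1.04, 0.767 and 1.65 FPKM there, beside 23.9, 20.3 and 8.65 in b-KC GFP and 149 to 221 in b-KC Co. The mean in Co was 154 times that in Tom and 10.1 times that in GFP, the largest ratios among the 8 tested genes. The log2(FPKM + 1) scale understates the change of a gene near 1 FPKM. On it, Krt77 had a log2 fold change of -6.37 for Tom (standard error 0.48, adjusted p = 2.53e-07, limma) and -3.35 for GFP (standard error 0.48, adjusted p = 0.00011, limma). Krt77 in HF-SC Tom was at 0.246, 0.974 and 0.632 FPKM against 7.77 to 14.5 in HF-SC Co, a decrease that passed (log2 fold change -2.96, standard error 0.48, adjusted p = 0.00014, limma). In HF-SC GFP it had 20.3, 8.34 and 2.765 FPKM, a range that spanned that of Co (log2 fold change -0.45, adjusted p = 0.486, limma).

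Krt79 had 202, 235 and 94.2 FPKM in b-KC GFP and 39.2, 55.6 and 33.2 in b-KC Tom, against 322 to 441 in b-KC Co. The decrease passed in Tom (log2 fold change -3.09, standard error 0.42, adjusted p = 4.34e-05, limma) and not in GFP (log2 fold change -1.14, standard error 0.42, adjusted p = 0.0417, limma). In HF-SCs the 2 fractions lay on opposite sides of Co, at 91.2, 107 and 29.2 FPKM in GFP and 8.91, 16.1 and 18.5 in Tom, with 22.5 to 31.2 in Co. Neither passed (log2 fold changes 1.26 and -0.91, adjusted p = 0.0275 and 0.0926, limma). Mouse 817 had the lowest Krt79 of HF-SC GFP, within the Co range, and without it both passed (log2 fold changes 1.83 and -1.10, adjusted p = 1.95e-05 and 0.00106, limma).

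Krt80 was the only one of the 8 genes whose decrease passed in all 4 DKO* populations. Krt2 and Krt77 also had negative log2 fold changes in all 4, but not all of these passed. Bulge cells held 39.6, 52.4 and 54.9 FPKM of Krt80 as GFP and 15.5, 25.7 and 66.1 as Tom. Basal keratinocytes held 44.7, 48.2 and 69.9 FPKM as GFP, with 29.3, 39.9 and 56.2 as Tom. All 12 values lay below the lowest of the 6 Co libraries at 123 FPKM. The log2 fold change of Krt80 was -1.46 (adjusted p = 0.00504, limma) and -2.13 (adjusted p = 0.000222) for the GFP and Tom bulge cells. For the basal keratinocytes it was -1.86 (adjusted p = 0.0011, limma) and -2.25 (adjusted p = 0.000176), each with a standard error of 0.36. The HF-SC GFP value did not pass without mouse 810, 815, 825 or 828 (adjusted p between 0.0195 and 0.0340), without the filter (adjusted p = 0.0174) or with the same FPKM sum in each library (adjusted p = 0.0101). The b-KC GFP value did not pass without mouse 815 (log2 fold change -1.79, adjusted p = 0.0215), and the HF-SC Tom value did not pass in a fit of the 2 groups alone (adjusted p = 0.0132).

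**Figure D3:**
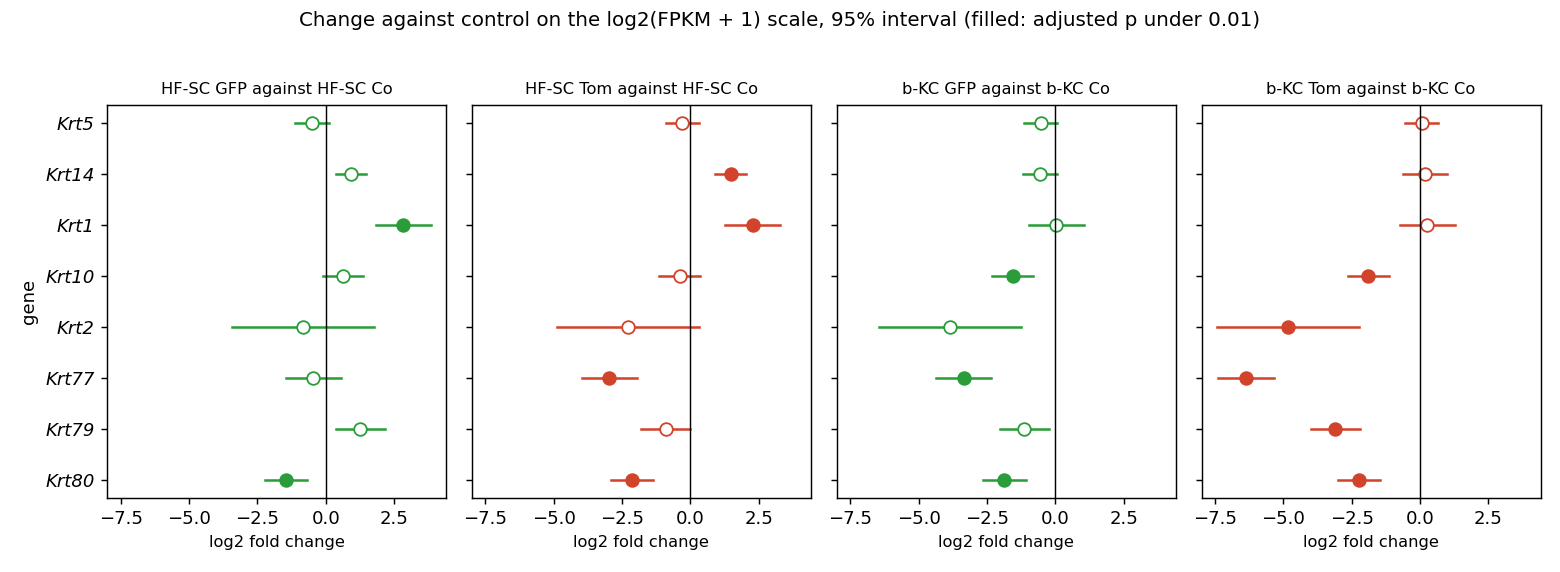
Log2 fold change of the 8 tested keratins against Co on the log2(FPKM + 1) scale in the 4 DKO* populations, with the 95% interval as a line and a filled circle where the adjusted p was under 0.01. Krt80 is lower in all 4 panels, Krt1 is higher in both HF-SC panels, and 5 genes are lower in b-KC Tom. In b-KC Tom, Krt14 rests on 1 library.

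Counted together, the 8 tested keratins moved mainly downwards in b-KCs and in both directions in HF-SCs. In b-KC Tom, 5 of 8 fell (Krt10, Krt2, Krt77, Krt79 and Krt80), beside 15.3% of all tested genes that fell, 15.4% that rose and 30.8% that passed in either direction. In b-KC GFP, 3 of 8 fell (Krt10, Krt77 and Krt80), beside 12% that fell, 12.5% that rose and 24.5% in either direction. In HF-SC Tom 4 of 8 passed, with Krt1 and Krt14 higher and Krt77 and Krt80 lower, beside 29.6% of all tested genes (15.7% higher and 13.9% lower). In HF-SC GFP 2 of 8 passed, with Krt1 higher and Krt80 lower, a share near the 25.4% of all tested genes (13% higher and 12.4% lower). With a log2 fold change of at least 2 in size also required, 4 of 8 were left in b-KC Tom (2.76% of all tested genes), 1 in b-KC GFP (1.88%), 3 and 1 for the Tom (4.09%) and GFP (3.07%) bulge cells, and 5 between the Co groups (5.65%). The median log2 fold change over the 8 genes was -2.07 in b-KC Tom, -1.35 in b-KC GFP, -0.65 in HF-SC Tom and 0.09 in HF-SC GFP, and over all tested genes it was between -0.05 and -0.02. These 4 comparisons share their control libraries within a cell type, and their mice.

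Mouse 817 moved these counts. Without it, 7 of 8 keratins passed in HF-SC Tom (Krt1 and Krt14 higher and 5 lower), beside 45.7% of all tested genes. In b-KC GFP 5 of 8 passed, all of them lower, beside 45.5% of all tested genes that passed in either direction. The b-KC Tom count was 5 of 8 with and without mouse 817, it was 4 of 8 when mouse 810, 825 or 828 was left out, and 4 of 7 without mouse 815, since no Krt14 value was then left in b-KC Tom. In HF-SC GFP, 3 of 8 passed without mouse 817, beside 37.2% of all tested genes, and 1 of 8, Krt1, without mouse 810, 815, 825 or 828. The b-KC GFP count was 1 of 8, Krt77, without mouse 815. The share of S100a8 and S100a9 in the FPKM sum was 1.84% to 4.76% in the 4 libraries of mouse 817 and up to 13.5% in those of the other DKO* mice, and its Jun was the lowest of the GFP libraries and the highest of the Tom libraries in both cell types. The part of these differences in the keratin values was not tested.

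**Figure D4:**
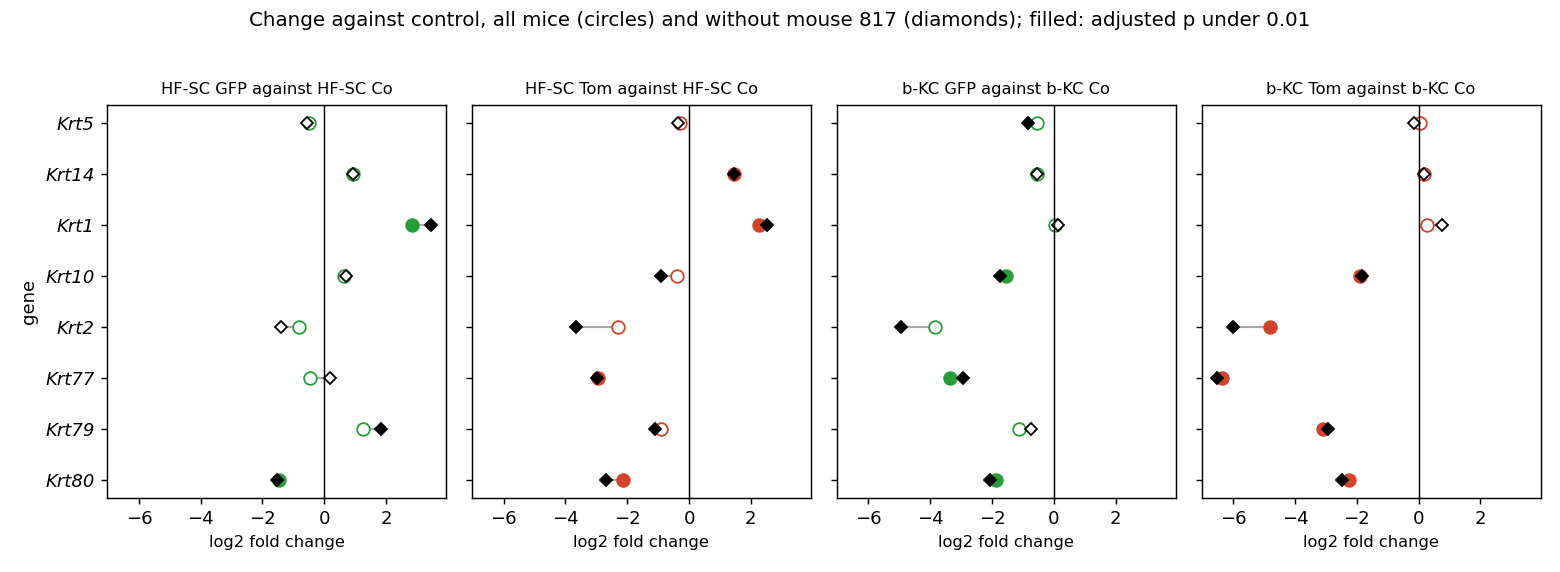
Log2 fold change of the 8 tested keratins against Co from all mice (circles) and without mouse 817 (diamonds), filled where the adjusted p was under 0.01. The largest shifts are those of Krt2, from -2.29 to -3.65 in HF-SC Tom, from -3.84 to -4.93 in b-KC GFP and from -4.83 to -6.01 in b-KC Tom.

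Mutant and non-mutant cells of the same mice were compared next, and the 2 keratins that passed were higher in GFP. Krt77 was higher in GFP than in Tom in both cell types, by 2.51 in HF-SCs (standard error 0.48, adjusted p = 0.00237, limma) and by 3.02 in b-KCs (standard error 0.48, adjusted p = 0.00366, limma). Within each cell type the lowest Krt77 of a GFP library exceeded the highest of a Tom library. Krt79 was higher by 2.17 in HF-SCs (standard error 0.42, adjusted p = 0.00295, limma) and by 1.96 in b-KCs, where it did not pass (adjusted p = 0.0272, limma). The GFP and Tom libraries did not overlap for Krt79 either. These were 2 of 8 genes in HF-SCs, beside 5% of all tested genes (0.91% higher and 4.09% lower in GFP), and 1 of 8 in b-KCs, beside 0.486% (0.361% higher and 0.125% lower). All 3 differences also exceeded 2 on the log2 scale, which 1.98% and 0.0863% of all tested genes did.

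The calls between the fractions were not firm. Without a trend in limma's variance model, Krt14, whose GFP and Tom libraries of the bulge did not overlap, also passed and was lower in GFP (log2 fold change -0.54, adjusted p = 0.00917, limma). With the mouse as a random block, Krt77 and Krt79 passed in b-KCs (adjusted p of Krt79 = 0.00468, limma). Fitting GFP and Tom by themselves with a term for each mouse left no keratin past the threshold, with adjusted p of 0.063 and 0.0762 for Krt77 and Krt79 in HF-SCs and 0.0178 for Krt77 in b-KCs (limma), and 4 genes had an unadjusted p under 0.05 in each cell type. In HF-SCs none passed without mouse 814 or without mouse 815, where 3 and 2 genes had an unadjusted p under 0.05. Without mouse 817, the GFP bulge cells exceeded the Tom ones for Krt10, Krt77, Krt79 and Krt80, by 1.59, 3.17, 2.94 and 1.15 (adjusted p of 0.00111 or less, limma), beside 13.4% of all tested genes. In b-KCs none passed without mouse 814, 815, 825 or 828, each with 2 genes at an unadjusted p under 0.05, and Krt77 and Krt79 both passed without mouse 817. Endothelial genes differed between the HF-SC fractions as well, with 9 of 10 higher in Tom, and their part in these differences was not tested.

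Whether a keratin responded differently in HF-SCs and b-KCs was tested by interaction terms. The signed log2 fold change of Krt10 from Co to GFP was higher in HF-SCs by 2.20 (standard error 0.50, adjusted p = 0.00922, limma), the separate log2 fold changes being 0.63 and -1.56. This was 1 of 8 genes, beside 5.18% of all tested genes (3.29% with the higher value in HF-SCs, 1.88% with the lower, and 0.863% with a difference of at least 2). Krt77, Krt1 and Krt79 were close to the limit, with differences of 2.90, 2.79 and 2.40 (adjusted p = 0.0107, 0.0122 and 0.0156, limma). Between Co and Tom the change of Krt77 differed by 3.41 (standard error 0.68, adjusted p = 0.00266, limma), from -2.96 for bulge cells to -6.37 for b-KCs. This was 1 of 8 beside 8.04% of all tested genes (5.93% higher in HF-SCs, 2.11% lower, and 1.98% with a difference of at least 2). Krt77 started from a mean of 11.7 FPKM in HF-SC Co and 177 in b-KC Co and stood at a mean of 0.617 and 1.15 FPKM in the Tom fractions.

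With the mouse as a random block, 5 keratins passed for the GFP change (Krt14, Krt1, Krt10, Krt77 and Krt79) and 3 for the Tom change (Krt1, Krt77 and Krt79), each with a higher signed log2 fold change in bulge cells, and 1385 and 1713 of all 12751 tested genes passed in these fits, up from 660 and 1025. Without mouse 817, 5 keratins passed for the GFP change (Krt1, Krt10, Krt2, Krt77 and Krt79) and 3 for the Tom change (Krt1, Krt77 and Krt79), beside 15.6% and 15.8% of all tested genes. The difference for Krt2 in the GFP change was 3.02 with all mice (adjusted p = 0.267, limma) and 3.55 without mouse 817 (adjusted p = 0.00882, limma). Without mouse 810, 815, 825 or 828 none of the keratins passed for either change, and without mouse 814 none passed for the GFP change. In these fits 4 or 5 keratins had an unadjusted p under 0.05.

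The order of the groups was read from the mean FPKM. Krt10, Krt2, Krt77, Krt79 and Krt80 were all highest in b-KC Co, and the libraries of b-KC Co did not overlap with those of the next group. How many of all tested genes share this order was not counted, so it is given only as a description. Krt10 followed the order b-KC Co, b-KC GFP, b-KC Tom, HF-SC GFP, HF-SC Co and HF-SC Tom, in which b-KC GFP and b-KC Tom overlapped, as did HF-SC Co and HF-SC Tom. Krt1 was highest in b-KC Tom, b-KC GFP and b-KC Co, which overlapped with each other in that order, and lowest in HF-SC Co, apart from all others. Krt2, Krt77, Krt79 and Krt80 were, like Krt10, lowest in HF-SC Tom, which overlapped with the next group for all of them but Krt79. Krt5 was the most even, from 2449 ± 199 FPKM (SD, n = 3) in HF-SC GFP to 5536 ± 1639 (SD, n = 3) in b-KC Tom. Together the 10 genes held 5.50% to 5.74% of the FPKM sum of the b-KC Co libraries and 1.45% to 2.98% of that of the other libraries, 3 of which lack Krt14.

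The simple keratins Krt8 and Krt18 were close to the limit of detection, and neither passed the filter on low values, so neither was among the 8 tested genes. Krt8 lay between 0.0645 and 0.869 FPKM in all 18 libraries, which corresponds to 3 to 35 reads. Krt18 lay between 0.0293 and 0.886 FPKM. A value of 3 reads was worth 0.0633 to 0.101 FPKM for Krt8 and 0.0816 to 0.13 for Krt18, counting error only. Krt18 had about 1 read in each HF-SC Co library and 5 to 32 reads in each library of the other groups, all of which lay above HF-SC Co. Krt8, its partner, had 14 to 27 reads in HF-SC Co, so the 2 genes did not follow each other there. Krt8 was lowest in b-KC Tom (3 to 6 reads) and HF-SC Tom (3 to 10 reads). None of the 9 Merkel cell genes passed the filter either, with the highest at 0.487 FPKM (Syp, a synaptic vesicle protein), and Atoh1, Sox2 and Krt20, which define these cells, were at or under 0.113 FPKM.

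Other genes of keratinocyte differentiation were counted beside the keratins. Of 18 tested suprabasal differentiation genes, 9 rose in HF-SC GFP, beside 13% of all tested genes, and the 4 with the largest change were Cnfn (4.62), Tgm1 (3.48), Grhl3 (3.32) and Ivl (3.03). Cnfn and Ivl are cornified envelope proteins, Tgm1 is the enzyme that cross-links them, and Grhl3 is a transcription factor of the barrier. In HF-SC Tom 4 rose and 3 fell, beside 15.7% and 13.9%, with Cnfn (2.94) and Grhl3 (1.86) again the largest. In b-KC GFP 1 rose, Tgm1 (1.98), and 3 fell, among them Lor (-2.48), the main envelope protein, and the desmosomal cadherin Dsg1a (-2.38), a total near the 24.5% of all tested genes that passed there. In b-KC Tom 6 fell, beside 15.3%, among them Lor (-3.41), Cdsn (-2.98) and Dsg1a (-2.53). In HF-SC Co 10 of the 18 were lower than in b-KC Co, beside 19.3%. The median log2 fold change of the 18 genes was 1.32 for GFP and 0.32 for Tom bulge cells, with -0.36 and -0.83 for the GFP and Tom b-KCs.

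Transcripts of proteins that anchor keratin filaments were counted as well. Of 10 tested linkers of desmosomes and hemidesmosomes, 3 fell in each DKO* group but HF-SC GFP, where 12% to 15.3% of all tested genes fell. Ppl, periplakin, fell in all 3 of these, with log2 fold changes of -1.33 in HF-SC Tom and -1.67 and -1.80 in the GFP and Tom b-KCs. Its partner Evpl, envoplakin, fell in the b-KC groups (-1.36 and -1.15). In HF-SC GFP none of the 10 passed (limma), and 3 had an unadjusted p under 0.05. Of 11 tested basal layer genes, 4 fell in b-KC GFP, beside 12% of all tested genes. They were Col17a1, Dst, Lama3 and Lamb3, all parts of the attachment to the basement membrane. In HF-SC Tom and b-KC Tom 1 of the 11 fell, beside 13.9% and 15.3%, and in HF-SC GFP 0 fell, beside 12.4%. Cdh3, P-cadherin, rose by 0.91 in b-KC GFP, by 0.97 in HF-SC GFP and by 1.04 in b-KC Tom. Dst, which links keratin filaments to hemidesmosomes, also fell in both Tom groups (-1.46 in HF-SCs and -1.98 in b-KCs). Of 11 tested genes of the upper follicle and sebaceous gland, where Krt79 is known, 7 fell in b-KC Tom, beside 15.3% of all tested genes, among them Elovl3 (-2.93) and Scd1 (-2.74), both lipid enzymes. In b-KC GFP 3 of these 11 fell and Plet1 rose, where 12% of all tested genes fell and 12.5% rose. In HF-SC GFP Defb6 (2.997) and Plet1 (1.54) rose, 2 of 11 beside 13% of all tested genes.

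Of the other 42 keratin genes, 16 passed the filter. Krt6b, a keratin of wounded and hyperproliferative epidermis, rose in all 4 DKO* populations. Its log2 fold change was 7.73 and 6.75 for GFP and Tom bulge cells, and 5.84 and 5.94 for GFP and Tom b-KCs (adjusted p of 5.30e-05 or less, limma). It had 0.263 to 1.45 FPKM in HF-SC Co and 170 to 616 in the HF-SC DKO* libraries. Counted over the 16, 4 rose and 2 fell in HF-SC GFP, 4 rose and 3 fell in HF-SC Tom, 3 rose and 5 fell in b-KC GFP, and 3 rose and 7 fell in b-KC Tom, while 25.4%, 29.6%, 24.5% and 30.8% of all tested genes passed in these comparisons, in that order. Krt24 fell in all 4, with -3.20 and -2.77 in bulge cells and -4.12 and -4.67 in b-KCs. Krt15, a keratin of the bulge and the basal layer, fell in both DKO* b-KC fractions (-2.21 and -3.44). Reads of Krt6b, Krt6a and Krt5 can share windows, as can those of Krt16, Krt17 and Krt14.

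The genes whose levels followed a keratin most closely over the 18 libraries are given as a description. For Krt10 they were Itprip, Mark2, Sept8, Sgpp1 and Tprn, with Pearson's r of 0.961 to 0.967. For Krt79 they were Ugt1a1 (r = 0.983), Ly6g6c, Pdlim2, Ly6g6e and Serpinb12 (r = 0.963 or more). For Krt8 the highest values were those of Rerg (r = 0.884), Insig2, Lce1b, H2-Q8 and Cldn8 (r = 0.769), at 3 to 35 reads of Krt8 per library. The 18 points share their 6 mice and fall into 6 groups, so the values mainly give the differences between groups.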

How the data were processed

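The authors prepared libraries from 4 to 10 ng RNA with a SMART-Seq v4 kit, which does not mark strand, and used TopHat2 2.0.10 and Bowtie 1.0.0 to place single-end reads of 51 bases on NCBI37/mm9, allowing 2 mismatches and 20 multihits. Cufflinks 2.2.1 is named in the submitters' processing notes. The deposited values are FPKM, normalized by the authors for transcript length and library size, for 23951 genes and 18 libraries. Whether they were also scaled between libraries is not stated. Median-of-ratios scaling factors lay between 0.981 and 1.02, beside FPKM sums of 360063 to 706509. Any such scaling would be part of the implied depths. Multihit reads make keratin paralogs uncertain.

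A gene was tested if 3 or more libraries reached 1 FPKM, which left 12751. limma 3.58.1 (R 4.3.3) was fitted to log2(FPKM + 1) with a mean per group over all 6 groups and an intensity trend in eBayes. A gene passed at a Benjamini-Hochberg adjusted p under 0.01. Intervals are limma's 95% intervals, from the spread between libraries. Exact zeros of genes with a median of at least 100 FPKM (9 zeros in 4 genes) were set to missing, and the filter was applied before that. Low FPKM values gave whole reads within 0.1 for 75.6% to 80.6% of values in 7744 genes with 1 transcript, where 20% is the share by chance, and this gave the depth. The 3-read floors cover counting error only.

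Each DKO* mouse gave both fractions and each Co mouse both cell types, so the mouse numbers pair the samples. Deviations from group means correlated within mice at r = 0.0838 to 0.687 over genes. Blocked values are given where they change a call. Replicates are separate mice. All 10 keratins are named. From each gene list up to 4 passing genes with the largest change are named, with others chosen after their values were seen. The keratins and lists were chosen with earlier results of these data known. Alternatives were another pseudocount, filter, scaling, threshold or variance model, the mouse as a block and each mouse left out. Simulated data were used to test the limma fits. Other steps used Python 3.11.15, pandas 2.3.3, numpy 2.4.6 and matplotlib 3.10.9.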

Additional observations from a re-analysis of the deposited data

Results flagged for a closer look

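Krt10 and Krt77 are listed here because their change from Co differed between the cell types by the interaction term. For Krt10 the log2 fold change of GFP against Co in HF-SCs exceeded that in b-KCs by 2.20 (adjusted p = 0.00922, limma). In HF-SC GFP 3 of 3 libraries lay above each HF-SC Co library, and in b-KC GFP 3 of 3 lay below each b-KC Co library. The adjusted p was 0.0104 with a pseudocount of 0.1, 0.0272 without the filter, 0.0103 with upper-quartile scaling and 0.0151 with the same FPKM sum in each library, and without mouse 810, 814, 815, 825 or 828 it lay between 0.0194 and 0.106. With upper-quartile scaling the 1 keratin that passed for this change was Krt77 (difference 2.91, adjusted p = 0.00889, limma).

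For Krt77 the log2 fold change of Tom against Co in HF-SCs exceeded that in b-KCs by 3.41 (adjusted p = 0.00266, limma), and it was a decrease in 3 of 3 libraries of both cell types. With a pseudocount of 0.1 the difference was 3.04 (adjusted p = 0.0228), without the filter its adjusted p was 0.0117, and without mouse 810, 815, 825 or 828 it lay between 0.0115 and 0.0486.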

How the results depend on the processing

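Of the values of single keratins under the alternatives, 1103 kept their direction and their side of the threshold, 62 no longer passed, 59 passed only under the alternative and 20 changed sign. The counts of passing keratins against Co were 2 and 4 for the GFP and Tom HF-SCs and 3 and 5 for the GFP and Tom b-KCs, 2 and 1 for GFP against Tom in HF-SCs and b-KCs, 5 for HF-SC Co against b-KC Co, and 1 each for the GFP and the Tom change between cell types. Leaving out 1 mouse at a time gave ranges of 1 to 3, 3 to 7, 1 to 5, 4 to 5, 0 to 4, 0 to 2, 5 to 6, 0 to 5 and 0 to 3 in that order. Fewer libraries enter these fits.

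A limit of 0.05 gave 4 in HF-SC GFP, 5 in b-KC GFP, 2 for GFP against Tom in b-KCs, and 5 and 2 for the 2 changes. Of all 12751 tested genes, 4911, 5303, 218, 1602 and 2019 passed that limit, in the same order. An added log2 fold change of at least 2 gave 1 in HF-SC GFP and 1 in b-KC GFP, beside 391 and 240 of all tested genes. Without the filter HF-SC GFP had 1 and both fraction comparisons and both changes had 0 (limma), with 4, 2, 4 and 4 keratins at an unadjusted p under 0.05. In that fit of 23951 genes, 3080 passed in HF-SC GFP, 752 and 39 for the fractions, and 566 and 949 for the changes. A pseudocount of 0.1 gave 0 for both changes, with 5 and 5 at an unadjusted p under 0.05, beside 546 and 788 of all tested genes that passed. Fitting only the groups compared gave 2 in HF-SC Tom, 0 and 0 for the fractions (2 and 2 at an unadjusted p under 0.05), and 2 and 2 for the changes. The counts over all tested genes were 1917 in HF-SC Tom, 83 and 0 for the fractions, and 908 and 878 for the changes. No trend in eBayes gave 2 and 2 for the changes, beside 669 and 1033 of all tested genes. The same FPKM sum in each library, chosen after seeing the data, gave 5 in b-KC GFP and 4 and 3 for the changes. Beside these, 2900, 708 and 1012 of all tested genes passed. The replicate block by mouse gave 2 for the fractions in b-KCs and 5 and 3 for the changes as a random block, and 0 and 0 for the fractions as a fixed block (4 and 4 at an unadjusted p under 0.05). Over all tested genes, 233, 1385 and 1713 passed with the random block, and 196 and 9 with the fixed block. The random block changed no other keratin count by over 1.5 times.

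Signs that changed belonged to values that did not pass. Against Co, Krt1 in b-KC GFP was -0.065 with upper-quartile scaling and -0.34 with the same sum. In b-KC Tom, Krt5 was -0.053 with upper-quartile scaling and -0.27 with the same sum, Krt14 was -0.26 with the same sum and -8.81 with the zeros kept, and Krt1 was -0.062 with the same sum. For GFP against Tom in b-KCs, Krt14 was 4.01 with the zeros kept. With 1 mouse left out at a time, the values ranged from -1.06 to 0.19 for Krt77 in HF-SC GFP, -0.90 to 0.0024 for Krt10 in HF-SC Tom, -0.052 to 0.14 for Krt1 in b-KC GFP, -0.17 to 0.25 for Krt5 and -0.27 to 0.75 for Krt1 in b-KC Tom. They ranged from -0.62 to 0.32 for Krt1 in b-KC GFP against Tom, -0.11 to 0.28 for the GFP change of Krt5 and -0.21 to 0.34 for the Tom change of Krt80.

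The same FPKM sum gave a median of all genes of down to -0.30 (b-KC GFP against Co), which was -0.026 before. The share of passing genes that were higher went from 51.1% to 26.7% there, from 50.1% to 32.3% in b-KC Tom, from 51.3% to 40.7% in HF-SC GFP and from 49.2% to 69.9% in HF-SC Co against b-KC Co (62.8% with upper-quartile scaling). Depth limits Krt8 and Krt18, which had 1 to 35 reads.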
